A study of Mus musculus with 15 samples.

Results

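The CC chemokine genes made by macrophages were followed in bulk RNA of mouse bone marrow-derived macrophages (BMDMs) over 5 conditions. The genes were *Ccl2*, *Ccl3*, *Ccl4*, *Ccl5*, *Ccl6*, *Ccl7*, *Ccl9*, *Ccl12*, *Ccl17* and *Ccl22*, taken from a list of names, and they are 10 of the 51763 genes in the deposited count table. All 10 are protein-coding and all 10 passed the filter on low counts that left 16919 genes for testing. *Ccl12* and *Ccl17* passed it through the stimulated groups, since their 3 PBS libraries together held 12 counts and 1 count.

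The cells came from the marrow of wild-type female C57BL/6NTac mice aged 8 to 10 weeks, grown with M-CSF (10 ng/mL), the growth factor that turns marrow cells into macrophages, for 10 days by the labels and for 8 to 9 days by the study's methods. Macrophages of 5 mice were pooled before plating, so the 3 libraries of a condition are technical replicates. Cells were held for 24 h with PBS as the control, with fully reduced HMGB1 (frHMGB1, 5 µg/mL), with disulfide HMGB1 (dsHMGB1, 5 µg/mL), with LPS (1 µg/mL) or with LPS plus IFNγ at 20 ng/mL (LPS/IFNγ). LPS in LPS/IFNγ was given at 1 µg/mL by the treatment field of the labels and at 100 ng/mL by their protocol text and the study's methods, so the LPS dose and IFNγ cannot be told apart where LPS/IFNγ is set against LPS. The study's methods describe recombinant HMGB1 that carries a tag (a calmodulin-binding protein), with the reducing agent DTT in the buffers of frHMGB1 and none in those of dsHMGB1, which came from another laboratory. The comparisons ask how far each redox form of HMGB1, a nuclear protein that acts as an alarm signal outside the cell, calls up the chemokine genes that LPS and LPS/IFNγ do.

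CC chemokines are small secreted proteins with a pair of adjacent cysteines, and they steer leukocytes through G protein-coupled receptors on the moving cell. Macrophages raise many of them when Toll-like receptors such as TLR4, the LPS receptor, switch on NF-κB and interferon genes, and IFNγ acts on part of the same genes. Ligands of CCR1 draw monocytes and T cells, ligands of CCR2 draw monocytes out of marrow and blood, and ligands of CCR4 draw helper and regulatory T cells.

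Total counts per library ran from 40934540 to 80925478, with medians of 65797491 in PBS and 41909977 in frHMGB1, 69342747 with dsHMGB1, 50693107 with LPS and 69321128 with LPS/IFNγ. Levels are counts divided by DESeq2's size factors (normalized counts), fold changes are the unshrunken log2 values of DESeq2 with their standard error (SE), and folds are the same values taken off the log scale. A gene was called higher or lower where edgeR's quasi-likelihood test, fitted on all 15 libraries and adjusted over the 16919 genes, gave an adjusted p under 0.05. These p-values and SEs cover the spread between cultures and libraries of pooled marrow and not the spread between mice. Of 9 macrophage markers, all 9 were detected and tested, with *Lyz2* the most abundant of them. Their summed level was 22040 to 26470 CPM (counts scaled to a common library total) in PBS and 27300 to 27590 in frHMGB1, 19580 to 21060 with dsHMGB1, 16160 to 16870 with LPS and 13530 to 13880 with LPS/IFNγ. In normalized counts, the scale of the chemokine levels, the sum was 1081780 to 1174870 in PBS, 1203250 to 1236210 in frHMGB1, 1147600 to 1235010 with dsHMGB1, 1197520 to 1257470 with LPS and 987086 to 1019240 with LPS/IFNγ. The macrophage sum was thus lowest in the 3 LPS/IFNγ libraries on both scales, while for dsHMGB1 and LPS its place relative to PBS depends on the scale, and its part in the chemokine levels was not tested. In bulk RNA, fewer cells of a type and less RNA per cell cannot be told apart.

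PBS replicate 3 stood apart from the other libraries. Its Pearson r across genes (log2 CPM) with PBS replicates 1 and 2 was 0.938 and 0.933, against 0.987 to 0.993 for the other pairs within a group. It held the highest normalized counts of the 3 PBS libraries for 8 of the 10 chemokine genes, the exceptions being *Ccl17* and *Ccl22*. Its summed macrophage markers were the 22040 CPM at the bottom of the PBS range but, in normalized counts, the 1174870 at the top. These markers split, with *Lyz2* at 958671 normalized counts against 819179 and 778078 in PBS replicates 1 and 2. *Adgre1* stood at 19359 against 49256 and 51148. Fibroblast markers of this library summed to 118.1 CPM against 263.8 and 282.2 in PBS replicates 1 and 2. Its neutrophil markers summed to 5.65 CPM against 2.48 and 2.16, and its dendritic cell markers to 7.41 CPM against 12.4 and 12.5. The part of this library in results that rest on PBS was not tested beyond leaving it out.

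In dsHMGB1, 10 of the 10 chemokine genes were called higher than in PBS, where 23.3% of all genes tested were, and the count was 9 wherever *Ccl6* lost its call, as under total counts and without PBS replicate 1, PBS replicate 2 or dsHMGB1 replicate 1. By edgeR's quasi-likelihood test 0 were called lower (24.2% of all genes), as were 0 at an unadjusted p under 0.05 and 0 by DESeq2. In LPS, 9 were called higher (26.7% of all genes), with *Ccl6* not called. Lower calls in LPS by the same test were 0 (36.2% of all genes), 0 at an unadjusted p under 0.05 and 0 by DESeq2. In LPS/IFNγ, 8 were called higher (29.0% of all genes) and 1, *Ccl6*, lower (31.2% of all genes), and *Ccl17* was not called. *Ccl12* and *Ccl17*, which passed the filter through the stimulated groups, could hardly be called lower. Of the other 8 genes, 8 were called higher with dsHMGB1, 7 with LPS and 7 with LPS/IFNγ, each a larger share than among all genes. These comparisons share the PBS libraries. Within dsHMGB1 the log2 fold changes ran from 0.31 for *Ccl6* to 9.19 for *Ccl5*.

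In frHMGB1, edgeR's quasi-likelihood test called 0 of the 10 genes higher than in PBS (1.31% of all genes) and 0 lower (5.69% of all genes). At an unadjusted p under 0.05 there were 2 higher, *Ccl5* and *Ccl9*, and 0 lower, and DESeq2 called 1 higher, *Ccl5*, and 0 lower. The frHMGB1 and PBS libraries of every chemokine gene overlapped, and the share of all genes that did so was not computed. For *Ccl2*, *Ccl3*, *Ccl4*, *Ccl6* and *Ccl9* the overlap came from PBS replicate 3 alone. Every frHMGB1 library of these genes lay above PBS replicates 1 and 2. With PBS replicate 3 left out, where 1459 genes of all were called higher against 222 with all libraries, 5 of the 10 were called higher in frHMGB1, by log2 fold changes from edgeR of 0.55 for *Ccl2*, 0.58 for *Ccl3*, 0.76 for *Ccl4*, 1.41 for *Ccl5* and 0.50 for *Ccl9*. With frHMGB1 replicate 3 left out, 1 gene was called higher, *Ccl5*. The count of 0 therefore depends on single libraries, and the sizes stayed far under those in dsHMGB1. Between the HMGB1 forms themselves, 9 genes were called higher in dsHMGB1 than in frHMGB1 (27.7% of all genes), 7 of 8 without *Ccl12* and *Ccl17*, and 0 lower (23.1% of all genes) by edgeR's quasi-likelihood test, with 0 lower at an unadjusted p under 0.05 and 0 by DESeq2. *Ccl6* was not called there. It was called with no filter on low counts (log2 fold change 0.36 by edgeR), with protein-coding genes alone (0.29) and with these 2 groups fitted alone (0.22), and its sign turned to -0.16, not called, when only total counts were scaled. It was also called (0.22) with PBS replicate 3 out of the shared fit, an alternative chosen after seeing the data.

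**Figure D1:**
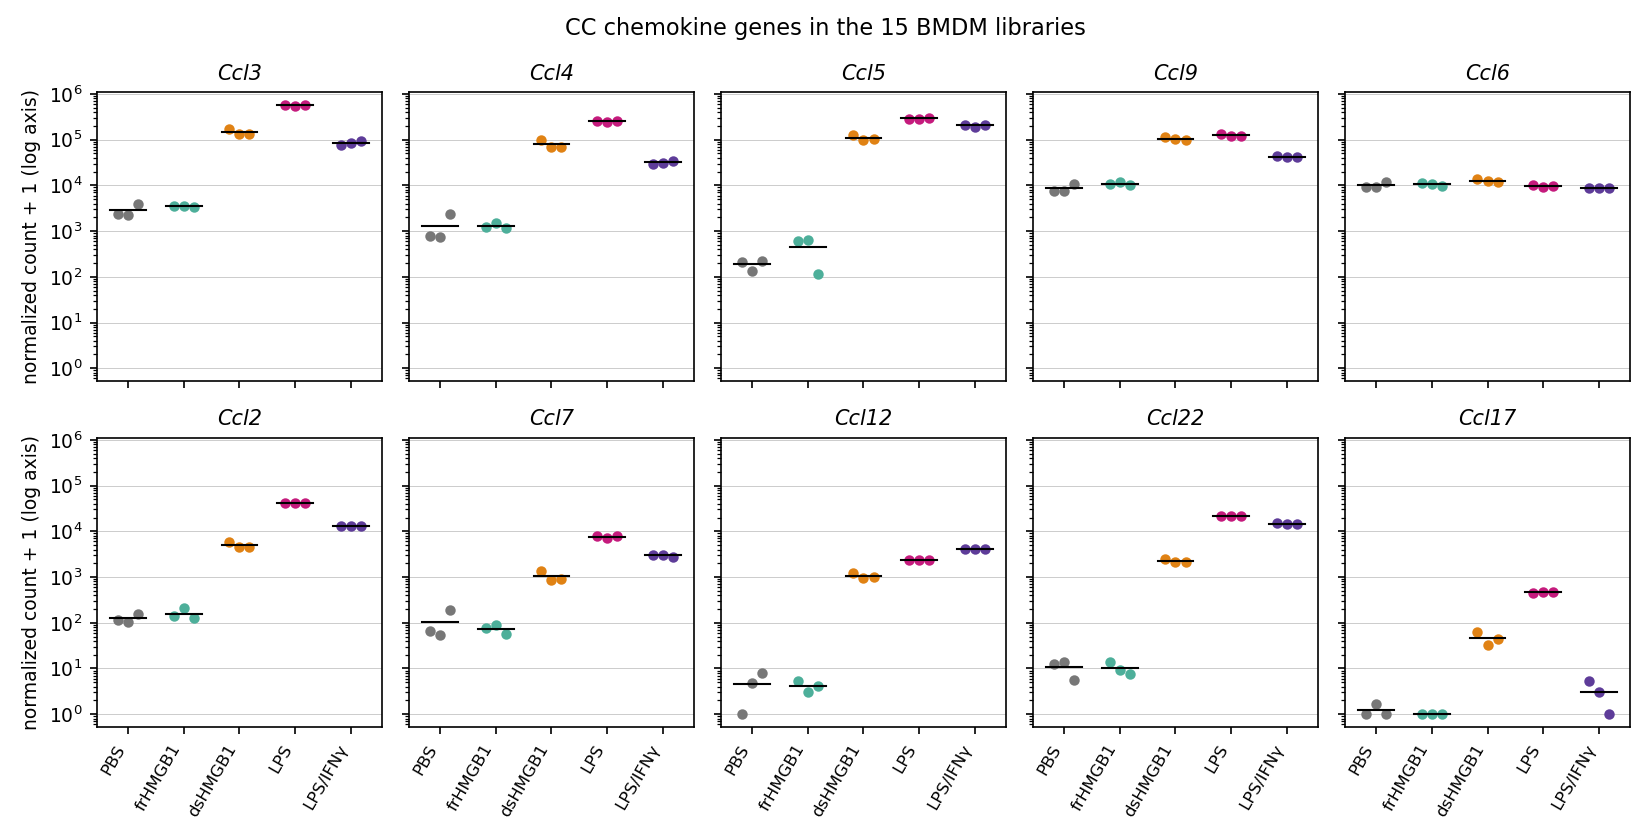
Normalized count plus 1 (log axis) of the 10 CC chemokine genes in each of the 15 libraries, by condition, with the mean of each group as a black line. PBS and frHMGB1 libraries overlap for every gene, for *Ccl2*, *Ccl3*, *Ccl4*, *Ccl6* and *Ccl9* through PBS replicate 3 alone. LPS/IFNγ lies above LPS only for *Ccl12* among these 10.

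**Figure D2:**
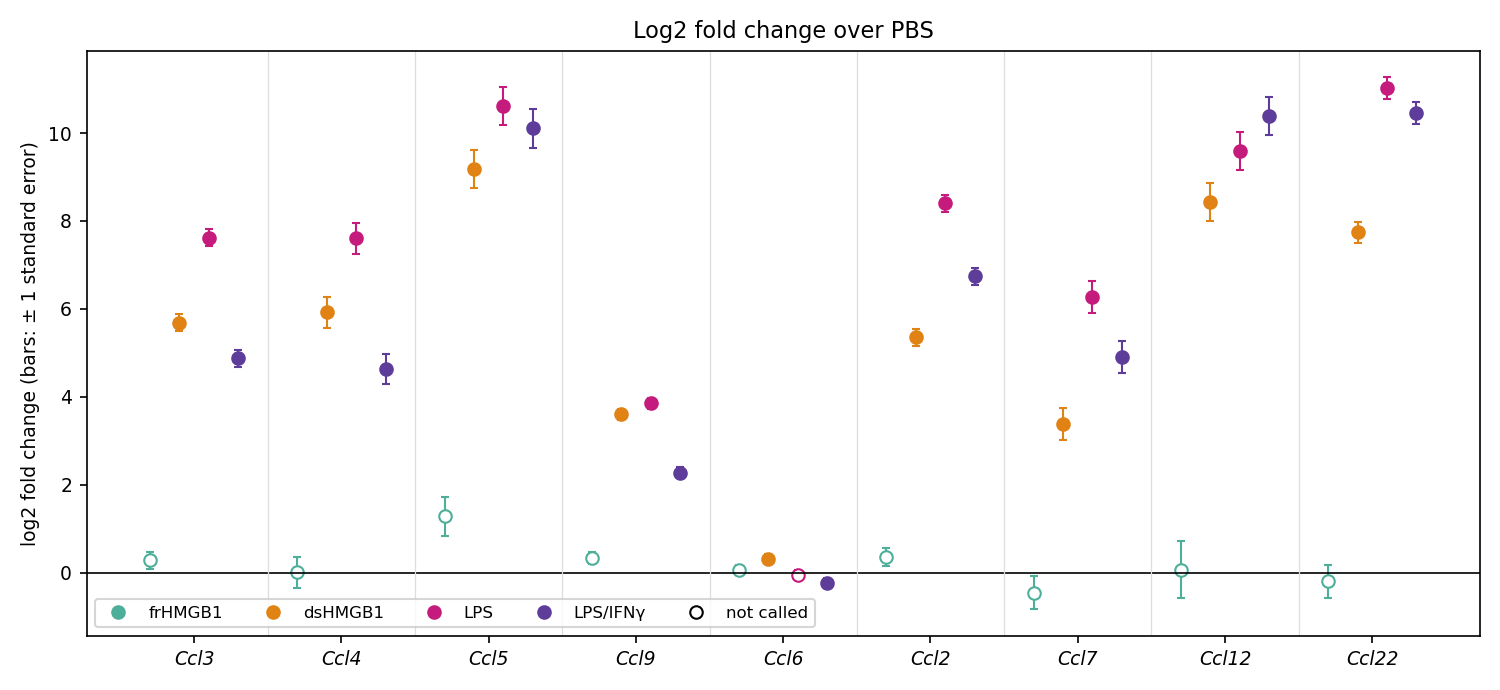
Log2 fold change over PBS (DESeq2, bars ± 1 SE) of 9 CC chemokine genes in frHMGB1, dsHMGB1, LPS and LPS/IFNγ, with filled points where the gene was called by edgeR's quasi-likelihood test. *Ccl17* is left out, as its PBS libraries hold 1 count, and *Ccl6* stays near 0, with a sign in dsHMGB1 that flips when only total counts are scaled.

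*Ccl3* (ENSMUSG00000000982, chr11:83647844-83649355, minus strand in GRCm38) codes for a CCR1 ligand that draws monocytes and T cells. Its normalized counts were 2370.1, 2282 and 3975 in PBS replicates 1 to 3, 3487, 3585 and 3402 in frHMGB1 and 172009, 136208 and 135523 in dsHMGB1. LPS libraries held 567795, 556757 and 563999, and LPS/IFNγ libraries 77315, 84264 and 91132. The order was LPS, dsHMGB1, LPS/IFNγ, and then frHMGB1 and PBS, which overlapped through PBS replicate 3. Over PBS, dsHMGB1 was 51.5-fold higher (log2 5.69, SE 0.19, edgeR's quasi-likelihood test, adjusted p 4.91e-11), and 3 of 3 dsHMGB1 libraries lay above every PBS library. LPS was 196-fold and LPS/IFNγ 29.3-fold higher than PBS, both called.

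*Ccl4* (ENSMUSG00000018930, chr11:83662584-83664683, plus strand) codes for a chemokine that draws monocytes and T cells and lies 13.2 kb from *Ccl3* on the other strand. PBS libraries held 789, 744 and 2336 normalized counts, with replicate 3 above the other PBS and all frHMGB1 libraries, and frHMGB1 libraries held 1249, 1472 and 1176. Counts were 97285, 67376 and 70303 with dsHMGB1, 257144, 246164 and 251018 with LPS and 29995, 31587 and 34116 with LPS/IFNγ. The groups followed the order of *Ccl3*, and every library of the last 3 groups lay above every PBS library. The gene was called higher than in PBS by log2 fold changes of 5.93 with dsHMGB1, 7.61 with LPS and 4.63 with LPS/IFNγ (SE 0.35 in each). Leaving out PBS replicate 3 moved edgeR's values from 5.95, 7.58 and 4.63 to 6.64, 8.30 and 5.31, all still called.

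The level per kb of *Ccl3* was above that of *Ccl4* in all 15 libraries. The ratio of these levels was 2.23 ± 0.664 in PBS (SD, n = 3) and 2.33 ± 0.207 in frHMGB1, 1.64 ± 0.11 with dsHMGB1, 1.93 ± 0.0239 with LPS and 2.27 ± 0.0457 with LPS/IFNγ. It was lowest in the 3 dsHMGB1 libraries apart from PBS replicate 3, at 1.47.

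*Ccl5* (ENSMUSG00000035042, chr11:83525778-83530518, minus strand), known as RANTES, codes for a ligand of CCR1 and CCR3 that draws T cells, monocytes and eosinophils. Its normalized counts were 209, 132 and 218 in PBS and 591, 652 and 112 in frHMGB1, where replicate 3 lay under every PBS library and replicates 1 and 2 above them. In dsHMGB1 they were 125777, 97021 and 102874, in LPS 288802, 280219 and 302707 and in LPS/IFNγ 209053, 193706 and 212016. The 9 libraries of these groups lay far above the other 6, and LPS/IFNγ libraries lay between those of dsHMGB1 and LPS. Over PBS it was 584-fold higher in dsHMGB1 (log2 9.19, SE 0.44, edgeR's quasi-likelihood test, adjusted p 2.17e-08), 1563-fold in LPS and 1102-fold in LPS/IFNγ. In frHMGB1 its log2 fold change of 1.28 (SE 0.44) was not called, and it was called at 1.77 by edgeR with frHMGB1 replicate 3 left out and at 1.41 with PBS replicate 3 left out. The ratio of *Ccl5* to *Ccl3* in level per kb was 0.586 ± 0.0188 with dsHMGB1, 0.412 ± 0.0143 with LPS and 1.95 ± 0.181 with LPS/IFNγ (SD, n = 3).

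*Ccl9* (ENSMUSG00000019122, chr11:83572919-83578636, minus strand) and *Ccl6* (ENSMUSG00000018927, chr11:83587882-83593087, minus strand) code for rodent CCR1 ligands that macrophages make without stimulation, and they lie 9.24 kb apart on the same strand. They are shown with their promoters because these neighbours moved apart. RefSeq (GRCm38.p6) holds a promoter entry for 6 of the 10 chemokine genes, *Ccl3*, *Ccl6*, *Ccl9*, *Ccl12*, *Ccl17* and *Ccl22*, and none for *Ccl2*, *Ccl4*, *Ccl5* and *Ccl7*. The 250 bases before the start are chr11:83578637-83578886 for *Ccl9* and chr11:83593088-83593337 for *Ccl6*, both minus strand in GRCm38, written 5' to 3' with motif matches in capitals.
Ccl9: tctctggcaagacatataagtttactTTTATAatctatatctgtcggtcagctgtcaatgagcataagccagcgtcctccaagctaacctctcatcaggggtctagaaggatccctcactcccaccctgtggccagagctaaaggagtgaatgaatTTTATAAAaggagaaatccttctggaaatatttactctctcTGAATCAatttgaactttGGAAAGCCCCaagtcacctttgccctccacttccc
Ccl6: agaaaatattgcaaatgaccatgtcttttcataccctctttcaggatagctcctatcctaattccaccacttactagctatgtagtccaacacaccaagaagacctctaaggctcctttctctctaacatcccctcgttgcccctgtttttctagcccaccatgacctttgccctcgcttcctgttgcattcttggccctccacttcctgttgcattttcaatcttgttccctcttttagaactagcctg
Searched on both strands were the NF-κB motif, the AP-1 motif TGANTCA, the TATA box TATAAA, the GAS motif TTCNNNGAA, the STAT6 motif TTCNNNNGAA and the ISRE TTTCNNTTTC. *Ccl9* holds an NF-κB match at -35 to -26, an AP-1 match at -53 to -47 and TATAAA matches at -224 to -219, -94 to -89 and -92 to -87, the latter pair overlapping. Of all 32851 promoters of 250 bases, 3.9% hold the NF-κB motif, 6.75% the AP-1 motif and 12.4% TATAAA. None of the 6 motifs occurs in the *Ccl6* window, nor in that of *Ccl3*, and *Ccl12* holds TATAAA at -31 to -26. The RefSeq start of *Ccl3* lies 23 bases before the annotated one. The part of these motifs in the levels of the genes was not tested.

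*Ccl9* normalized counts were 7709.8, 7646 and 10644 in PBS and 10716, 11628 and 10387 in frHMGB1. The dsHMGB1 libraries held 115821, 102069 and 96689, the LPS libraries 131293, 120254 and 122978, and the LPS/IFNγ libraries 43131, 40941 and 41834. All 9 libraries of the last 3 groups lay above the 6 of PBS and frHMGB1. The gene was called 12.1-fold higher than PBS in dsHMGB1 (log2 3.60, SE 0.13), 14.4-fold in LPS and 4.84-fold in LPS/IFNγ. For dsHMGB1, edgeR's quasi-likelihood test gave an adjusted p of 4.24e-11. In frHMGB1 its log2 fold change of 0.33 (SE 0.13) was not called with all libraries and was called with PBS replicate 3 left out (0.50 by edgeR). Apart from *Ccl6*, *Ccl9* had the smallest fold over PBS of the called genes in LPS and LPS/IFNγ.

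*Ccl6* was nearly level over the 15 libraries, with normalized counts of 9104, 9255 and 12082 in PBS, 11502, 10523 and 9713 in frHMGB1 and 13569, 12231 and 11828 in dsHMGB1. LPS libraries held 10324, 9142 and 9884 and LPS/IFNγ libraries 8640.2, 8563 and 8624. The 3 LPS/IFNγ libraries lay under all PBS libraries, and the LPS and PBS libraries overlapped. In dsHMGB1 the gene was called 1.24-fold higher than in PBS (log2 0.31, SE 0.12, edgeR's quasi-likelihood test, adjusted p 0.0266), a sign that flipped to -0.036 by edgeR, not called, when only total counts were scaled. That call was lost without PBS replicate 1 (0.25 by edgeR), PBS replicate 2 (0.26) or dsHMGB1 replicate 1 (0.26), and also with only the 2 groups fitted (0.30), with a filter of 1 CPM in 3 libraries (0.26) and under upper-quartile scaling (0.066). In LPS/IFNγ it was called lower (log2 -0.24, SE 0.12, edgeR's quasi-likelihood test, adjusted p 0.0449), and DESeq2 did not call it, nor did edgeR with only the 2 groups fitted (-0.20). The lower call was lost without PBS replicate 3 (-0.16 by edgeR) and without LPS/IFNγ replicate 1, 2 or 3 (-0.27, -0.26 and -0.26). In LPS the log2 fold change of -0.05 (SE 0.12) was not called.

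The scaling of the libraries bears on *Ccl6* directly. Scaling by total counts alone moved the median log2 fold change of all genes by -0.35 with dsHMGB1, -0.62 with LPS and -0.66 with LPS/IFNγ over PBS, and upper-quartile scaling by -0.23, -0.28 and -0.29. On these scales *Ccl6* was called lower than PBS both in LPS (-0.73 and -0.40 by edgeR) and in LPS/IFNγ (-0.90 and -0.56), and was not called in dsHMGB1 (-0.036 and 0.066). For the other 9 genes no called direction reversed under any of the scalings tried, but under total counts *Ccl5* lost its lower call in dsHMGB1 against LPS (-1.09) and *Ccl9* was called higher in frHMGB1 than in PBS (0.40). The ratio of *Ccl9* to *Ccl6* in level per kb does not rest on scaling, and it was 0.502 ± 0.0163 in PBS (SD, n = 3) and 0.61 ± 0.054 in frHMGB1, 4.92 ± 0.106 with dsHMGB1, 7.53 ± 0.212 with LPS and 2.87 ± 0.0633 with LPS/IFNγ. *Ccl6* was thus the more abundant of the pair per kb in PBS and frHMGB1, and *Ccl9* in the other 3 groups.

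*Ccl2* (ENSMUSG00000035385, chr11:82035571-82037453, plus strand) codes for the main CCR2 ligand of monocyte recruitment, and *Ccl7* (ENSMUSG00000035373, chr11:82045712-82047525, plus strand), 8.26 kb away, for a ligand of CCR2 and other receptors. *Ccl2* normalized counts were 112, 102 and 158 in PBS and 140.0, 206 and 124 in frHMGB1. The dsHMGB1 libraries held 5972, 4550.2 and 4565, the LPS libraries 42336, 41239 and 41234, and the LPS/IFNγ libraries 13301, 13293 and 12751. LPS libraries lay above all LPS/IFNγ libraries and these above all dsHMGB1 libraries. The gene was called 41-fold higher than PBS in dsHMGB1 (log2 5.36, SE 0.20, edgeR's quasi-likelihood test, adjusted p 1.9e-10), 339-fold in LPS and 107-fold in LPS/IFNγ.

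*Ccl7* normalized counts were 64, 53.6 and 185 in PBS and 75.9, 86.9 and 55 in frHMGB1. The dsHMGB1 libraries held 1322, 877 and 919.6, the LPS libraries 7971, 7259 and 7850.5, and the LPS/IFNγ libraries 3023, 3064 and 2788. The order of the stimulated groups was that of *Ccl2*, at a lower level per kb. It was called higher than PBS by log2 fold changes of 3.39 with dsHMGB1, 6.27 with LPS and 4.90 with LPS/IFNγ (SE 0.36 in each). PBS replicate 3 set much of the PBS mean, and leaving it out moved edgeR's values from 3.42, 6.25 and 4.91 to 4.11, 6.97 and 5.58. The ratio of *Ccl2* to *Ccl7* in level per kb was 1.06 ± 0.401 in PBS (SD, n = 3), 3.44 ± 0.241 with dsHMGB1, 3.81 ± 0.164 with LPS and 3.12 ± 0.0856 with LPS/IFNγ.

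*Ccl12* (ENSMUSG00000035352, chr11:82101845-82103400, plus strand) codes for a rodent CCR2 ligand. It was nearly silent at rest, with 0, 3.78 and 7.03 normalized counts in PBS and 4.28, 2.04 and 3.24 in frHMGB1. Counts were 1200.2, 953 and 976 with dsHMGB1, 2338, 2333 and 2382 with LPS and 4096, 4034 and 4071 with LPS/IFNγ. *Ccl12* was the only one of the 10 genes highest in LPS/IFNγ, with its 3 libraries above all LPS libraries. Its fold over PBS, where 12 counts were seen, was 344 in dsHMGB1 (95% interval of counting error 197 to 667), 781 in LPS (447 to 1512) and 1351 in LPS/IFNγ (773 to 2615), all called. Such intervals cover counting error only, as copies made by PCR are not separate molecules. Without PBS replicate 1, edgeR's log2 fold changes were 7.67, 8.79 and 9.62, and without PBS replicate 3 they were 8.97, 10.12 and 10.90, against 8.33, 9.45 and 10.28 with all libraries. The ratio of *Ccl2* to *Ccl12* in level per kb was 2.27 ± 0.0717 with dsHMGB1, 8.35 ± 0.187 with LPS and 1.52 ± 0.0396 with LPS/IFNγ (SD, n = 3).

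*Ccl22* (ENSMUSG00000031779, chr8:94745590-94751699, plus strand) and *Ccl17* (ENSMUSG00000031780, chr8:94810453-94812036, plus strand) code for the CCR4 ligands and are made by macrophages and dendritic cells. They lie 58.8 kb apart, with *Cx3cl1* between them, and their promoters are shown because these neighbours parted in LPS/IFNγ. The *Ccl17* window is chr8:94810203-94810452 and the *Ccl22* window chr8:94745434-94745589 (RefSeq, GRCm38.p6, plus strand). The second has 156 bases because the RefSeq start of *Ccl22* lies 94 bases inside the annotated gene, and its bases before the annotated start are given. Capitals mark motif matches, 5' to 3'.
Ccl17: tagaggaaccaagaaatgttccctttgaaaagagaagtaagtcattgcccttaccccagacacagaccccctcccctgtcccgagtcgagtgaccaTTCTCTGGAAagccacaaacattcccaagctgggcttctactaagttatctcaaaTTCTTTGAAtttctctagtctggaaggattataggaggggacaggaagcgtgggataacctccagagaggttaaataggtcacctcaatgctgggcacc
Ccl22: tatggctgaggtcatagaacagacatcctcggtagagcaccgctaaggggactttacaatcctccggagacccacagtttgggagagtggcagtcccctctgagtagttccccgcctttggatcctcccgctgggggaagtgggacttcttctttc
*Ccl17* holds a GAS match (TTCNNNGAA) at -99 to -91 and a STAT6 match (TTCNNNNGAA) at -154 to -145, which do not overlap. Of all promoters of 250 bases, 7.02% hold the first and 5.85% the second, and 2.98% hold the ISRE TTTCNNTTTC, which is in none of the 6 windows searched. The *Ccl22* window holds none of the 6 motifs. Over 156 bases, 2.4% of promoters hold the NF-κB motif, 4.59% GAS, 3.87% the STAT6 motif, 1.98% the ISRE, 4.21% AP-1 and 7.52% TATAAA. Whether these motifs play a part in the *Ccl17* and *Ccl22* levels was not tested.

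*Ccl22* normalized counts were 11.6, 12.6 and 4.69 in PBS and 12.8, 8.18 and 6.47 in frHMGB1. The dsHMGB1 libraries held 2484, 2083 and 2162, the LPS libraries 21985, 21773 and 21789.9, and the LPS/IFNγ libraries 15312, 14300.1 and 14547. LPS libraries lay above LPS/IFNγ libraries and both far above dsHMGB1. Its 2085-fold difference from PBS in LPS (log2 11.03, SE 0.24, edgeR's quasi-likelihood test, adjusted p 1.28e-12) was the largest of the 9 genes with more than 1 count in PBS. In dsHMGB1 the fold was 214 and in LPS/IFNγ 1404, both called.

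*Ccl17* was read in few counts outside LPS, with 0, 0.631 and 0 normalized counts in PBS and 0, 0 and 0 in frHMGB1. They were 62.3, 31.5 and 43.7 with dsHMGB1, 439.5, 469 and 471 with LPS and 4.24, 2.1 and 0 with LPS/IFNγ. The LPS libraries lay above all dsHMGB1 libraries and these above all LPS/IFNγ libraries, which overlapped PBS. Raw counts over 3 libraries were 1 in PBS and 0 in frHMGB1, 165 with dsHMGB1, 974 with LPS and 6 with LPS/IFNγ. The gene was called higher than PBS in dsHMGB1, at a ratio of 178.9 (95% counting interval 31.7 to 7108), and in LPS, at 1829 (327 to 72312). Against frHMGB1 it was at least 42.5-fold higher in dsHMGB1, taking a floor of 3 counts over the frHMGB1 group. In LPS/IFNγ the ratio to PBS of 8.01 (0.971 to 368) was not called, and edgeR called it at 3.11 on the log2 scale with LPS/IFNγ replicate 3 left out. Without LPS/IFNγ replicate 1 edgeR's value was 1.54, not called. Without PBS replicate 2, which holds the 1 PBS count, edgeR's log2 fold changes went from 6.94 to 8.53 in dsHMGB1, from 10.21 to 11.80 in LPS and from 2.51 to 4.10 in LPS/IFNγ. With 0 PBS counts left, these fitted values depend on edgeR's prior count and are no bound.

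The ratio of *Ccl22* to *Ccl17* in level per kb was 11.4 ± 2.92 in dsHMGB1 and 10.5 ± 0.468 in LPS (SD, n = 3), and the libraries overlapped. In LPS/IFNγ *Ccl22* stood at 1404-fold over PBS while *Ccl17* was near 0, so no ratio is given there. Dendritic cells also make both, and 9 of 9 listed dendritic cell markers were found, 5 of them tested, with *Kit* the most abundant. Their sum was 7.41 to 12.5 CPM in PBS, 8.82 to 9.26 in frHMGB1, 6.72 to 7.38 with dsHMGB1, 11.2 to 12.7 with LPS and 15.7 to 16.8 with LPS/IFNγ. In normalized counts it was 395 to 529.7 in PBS, 389 to 415 in frHMGB1, 394 to 430.4 with dsHMGB1, 828 to 945 with LPS and 1142 to 1240.2 with LPS/IFNγ. The listed genes did not move together. Mean normalized counts of *Clec9a* were 117 in PBS, 9.73 with dsHMGB1, 12 with LPS and 67.1 with LPS/IFNγ. Those of *Zbtb46* were 14.2 in PBS, 73.4 with dsHMGB1, 195 with LPS and 515 with LPS/IFNγ, and those of *Xcr1* 81.2, 137, 406 and 481. PBS replicates 1 to 3 held 45.9, 52.3 and 145 of *Xcr1* and 24.6, 15.8 and 2.34 of *Zbtb46*. In the same order of groups, means of *Kit* were 256, 182, 269 and 123 and those of *Itgae* 11.2, 4.12, 4.99 and 0. *Flt3* and *Siglech* were at or near 0. The part of dendritic cells in the *Ccl22* and *Ccl17* levels was not tested.

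Set against LPS, LPS/IFNγ asks what IFNγ, within the limit of the LPS dose, adds. By edgeR's quasi-likelihood test, 1 of the 10 genes was called higher in LPS/IFNγ than in LPS (16.3% of all genes), *Ccl12*, and 7 were called lower (9.36% of all genes). Of the 8 genes other than *Ccl12* and *Ccl17*, 6 were called lower, a larger share than among all genes. That background moved: 1583 of all genes were called lower with all libraries and 4435 with these 2 groups fitted alone. Without PBS replicate 3, an alternative chosen after seeing the data, 4213 were. The lower calls were *Ccl17*, *Ccl4*, *Ccl3*, *Ccl2*, *Ccl9*, *Ccl7* and *Ccl22*. *Ccl17* was 228-fold higher in LPS than in LPS/IFNγ (95% counting interval 105 to 624). Without LPS/IFNγ replicate 1 its log2 fold change by edgeR went from -7.71 to -8.71. *Ccl4* was 7.88-fold and *Ccl3* 6.68-fold higher in LPS, with log2 fold changes in LPS/IFNγ of -2.98 (SE 0.35) and -2.74 (SE 0.19). For *Ccl2*, *Ccl9* and *Ccl7* these were -1.67, -1.57 and -1.38, all called.

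The smallest of the called differences between LPS/IFNγ and LPS needed all 6 libraries of these groups to be called. *Ccl22* (-0.57, SE 0.09, edgeR's quasi-likelihood test, adjusted p 0.0313) and *Ccl12* (0.79, SE 0.12, edgeR's quasi-likelihood test, adjusted p 0.0252) lost their calls when any 1 of the 6 LPS and LPS/IFNγ libraries was left out. Their log2 fold changes by edgeR then lay between -0.61 and -0.57 for *Ccl22* and between 0.77 and 0.78 for *Ccl12*. With all libraries edgeR gave -0.53 and 0.83, and the 3 libraries of each group lay apart for both. *Ccl5* was not called (-0.50, 95% interval -1.35 to 0.34), although its 3 LPS/IFNγ libraries lay under all LPS libraries, nor was *Ccl6* (-0.18, -0.42 to 0.05), and these intervals leave room for a difference either way. Both were called lower with these 2 groups fitted alone (-0.50 for *Ccl5* and -0.19 for *Ccl6* by edgeR). *Ccl6* was also called lower (-0.20) with PBS replicate 3 out of the shared fit, an alternative chosen after seeing the data. That library enters this comparison through the filter, the scaling and the shared estimate of spread, and without it *Ccl22* and *Ccl12* were called too.

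Against LPS, dsHMGB1 had 1 chemokine gene called higher (15.8% of all genes), *Ccl6*, and 8 called lower (10.6% of all genes). Without *Ccl12* and *Ccl17* these were 1 and 6 of 8, the lower count again a larger share than among all genes. LPS was 9.74-fold higher than dsHMGB1 for *Ccl22*, 8.27-fold for *Ccl2*, 7.4-fold for *Ccl7*, 3.81-fold for *Ccl3*, 3.21-fold for *Ccl4*, 2.68-fold for *Ccl5* and 2.26-fold for *Ccl12*. For *Ccl17* the ratio was 10.2 (95% counting interval 8.66 to 12.1). The CCR2 and CCR4 ligands, apart from *Ccl12*, thus lay further under LPS in dsHMGB1 than *Ccl3*, *Ccl4*, *Ccl5* and *Ccl9* did, a contrast between genes that was not tested. *Ccl9* was not called (-0.25, 95% interval -0.51 to 0.01), and its sign turned to 0.08, not called, when only total counts were scaled. It was called lower (-0.23 by edgeR) with PBS replicate 3 out of the shared fit, an alternative chosen after seeing the data. The lower call of *Ccl5* was lost without LPS replicate 1, 2 or 3 and without dsHMGB1 replicate 2 or 3, as it was under total counts, and the higher call of *Ccl6* without LPS replicate 2 (0.33 by edgeR) or dsHMGB1 replicate 1 (0.32). In the fits with 1 dsHMGB1 or LPS library left out *Ccl5* stood between -1.52 and -1.29 on edgeR's log2 scale.

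Against LPS/IFNγ, dsHMGB1 had 5 genes called higher (16.5% of all genes) and 4 called lower (16.7% of all genes). Without *Ccl12* and *Ccl17* these were 4 and 3 of 8, each a larger share than among all genes. Higher in dsHMGB1 were *Ccl17*, *Ccl9*, *Ccl4*, *Ccl3* and *Ccl6*. Their log2 fold changes were 1.32 for *Ccl9* (SE 0.13), 1.30 for *Ccl4* (SE 0.35), 0.81 for *Ccl3* (SE 0.19) and 0.54 for *Ccl6* (SE 0.12). The ratio for *Ccl17* was 22.3 (95% counting interval 10.05 to 61.8), and its log2 fold change by edgeR went from 4.43 to 5.41 without LPS/IFNγ replicate 1 and to 3.83 without replicate 3. Lower in dsHMGB1 were *Ccl22* (-2.71), *Ccl12* (-1.96), *Ccl7* (-1.51) and *Ccl2* (-1.38). *Ccl5* was not called (-0.92, 95% interval -1.76 to -0.07), and was called lower with these 2 groups fitted alone (-0.89 by edgeR) and (-0.88) with PBS replicate 3 out of the shared fit, an alternative chosen after seeing the data. *Ccl3*, *Ccl4*, *Ccl9* and *Ccl6* were thus on the dsHMGB1 side and the CCR2 ligands on the LPS/IFNγ side, while the CCR4 ligands were split.

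**Figure D3:**
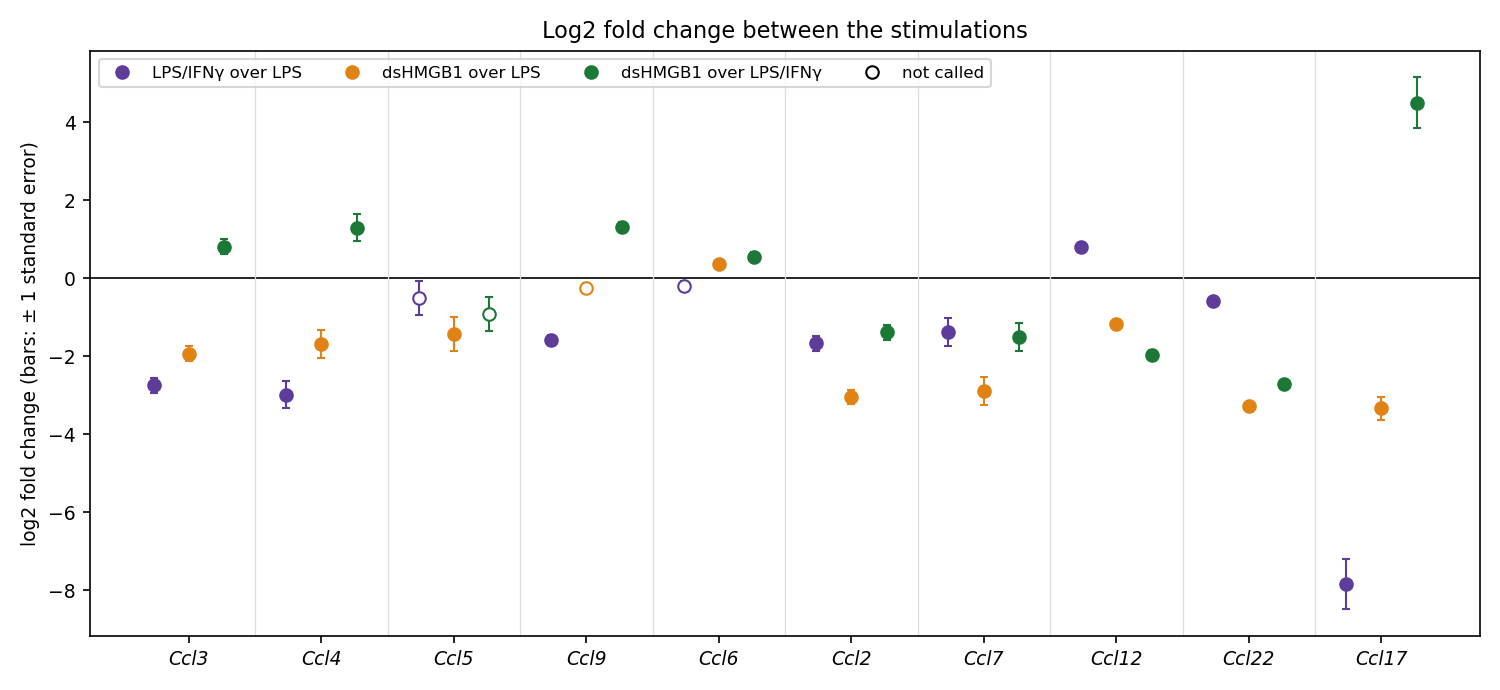
Log2 fold change (DESeq2, bars ± 1 SE) of the 10 CC chemokine genes for LPS/IFNγ over LPS, dsHMGB1 over LPS and dsHMGB1 over LPS/IFNγ, with filled points where edgeR's quasi-likelihood test called the gene. Among these genes *Ccl12* alone was called higher in LPS/IFNγ than in LPS, and *Ccl17* moved furthest, to -7.83.

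To compare levels between genes, normalized counts were divided by the summed exon length of each gene in kb. In PBS and frHMGB1 *Ccl6* stood highest per kb among the 10, at 5653 ± 934 and 5894 ± 499 (SD, n = 3). *Ccl3* was highest in dsHMGB1 (193098 ± 27246) and LPS (734791 ± 7321), and *Ccl5* in LPS/IFNγ (213464 ± 10238). *Ccl17* was lowest in all 5 groups. As shares of the summed level per kb of the 10 genes, *Ccl6* made up 39.4% in PBS, 35.3% in frHMGB1, 1.48% in dsHMGB1 and 0.357% in LPS. *Ccl3* made up 25.4% in PBS, 40.7% with dsHMGB1, 48.2% with LPS and 26.2% with LPS/IFNγ. *Ccl5* went from 1.36% in PBS to 23.8% with dsHMGB1, 19.8% with LPS and 50.9% with LPS/IFNγ. The mix per kb in dsHMGB1 and LPS was thus led by *Ccl3*, *Ccl4* and *Ccl5* in that order, and in LPS/IFNγ by *Ccl5*, *Ccl3* and *Ccl4*. With the length of the longest transcript in place of all exons, *Ccl5* ranked above *Ccl4* in dsHMGB1 and LPS.

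*Ccl9* held 19.7% of the summed level per kb in PBS, 7.29% with dsHMGB1, 2.69% with LPS and 3.29% with LPS/IFNγ. The CCR2 and CCR4 ligands were minor in every group on this scale, with *Ccl2* at 2.4% in LPS and 2.75% in LPS/IFNγ, *Ccl12* at 1.81% and *Ccl22* at 1.51% in LPS/IFNγ. Together the 10 genes took 0.0478% to 0.0556% of all counts in the PBS libraries, 0.0566% to 0.0644% in frHMGB1, 0.722% to 0.913% with dsHMGB1, 1.73% to 1.83% with LPS and 0.540% to 0.570% with LPS/IFNγ. In normalized counts per kb the summed levels of the dsHMGB1 libraries (429124 to 558892) and the LPS/IFNγ libraries (407030 to 438578) overlapped, so the gap between these groups in share of counts does not hold on that scale, while LPS lay above both on each.

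**Figure D4:**
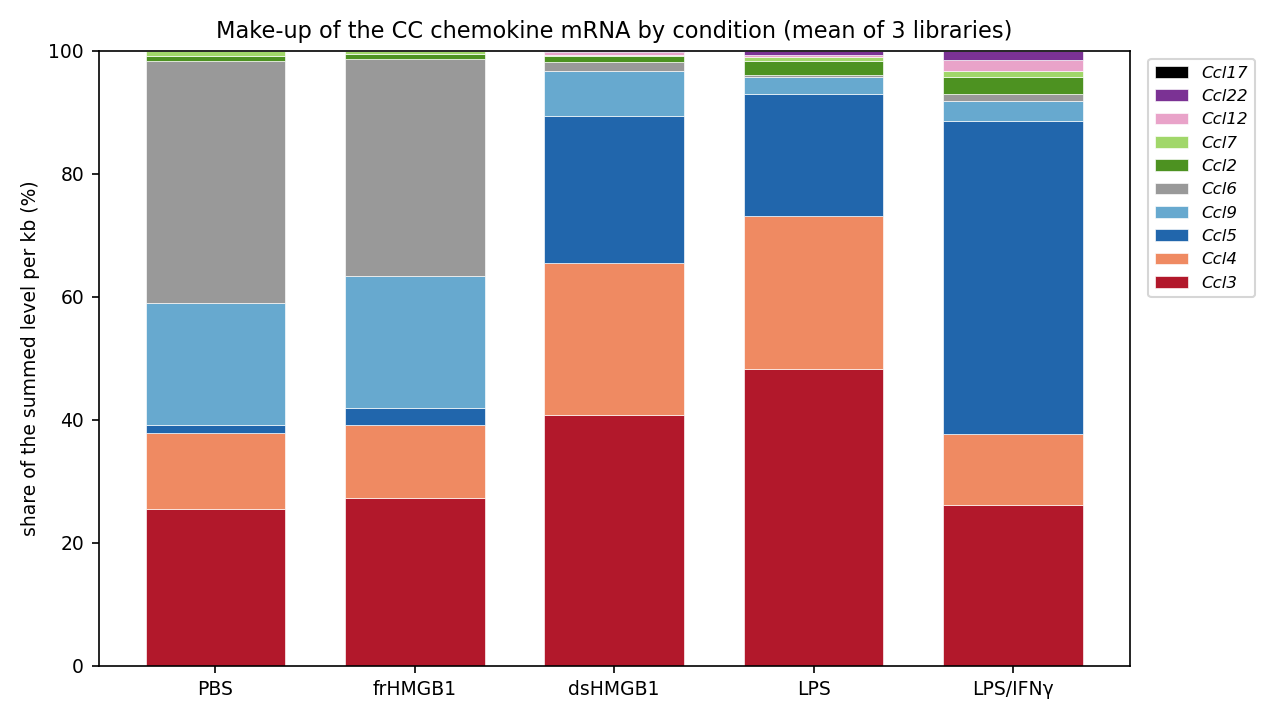
Share of the summed level per kb (percent, mean of 3 libraries) that each of the 10 CC chemokine genes holds in each condition, stacked to the whole. *Ccl6* holds 39.4% in PBS and 1.48% in dsHMGB1, and *Ccl5* holds 50.9% in LPS/IFNγ.

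The genes lie in 2 places of chromosome 11 and 1 of chromosome 8, and place did not sort them by pattern. On chromosome 11, *Ccl2*, *Ccl7* and *Ccl12* lie within reach of one another, with *Ccl11* in the 54.3 kb between *Ccl7* and *Ccl12*. *Ccl5*, *Ccl9*, *Ccl6*, *Ccl3* and *Ccl4* follow after 1422377 bases, with 42.4 kb between *Ccl5* and *Ccl9* and 54.8 kb between *Ccl6* and *Ccl3*. By the order of the stimulated groups, *Ccl2*, *Ccl5*, *Ccl7* and *Ccl22* ran LPS, LPS/IFNγ, dsHMGB1, and *Ccl3*, *Ccl4*, *Ccl9* and *Ccl17* ran LPS, dsHMGB1, LPS/IFNγ. *Ccl12* ran LPS/IFNγ, LPS, dsHMGB1, and *Ccl6* dsHMGB1, LPS, LPS/IFNγ, with the LPS and LPS/IFNγ levels of *Ccl6* and of *Ccl5*, the LPS/IFNγ and dsHMGB1 levels of *Ccl5* and the LPS and dsHMGB1 levels of *Ccl9* not called apart. Each cluster held more than 1 order. *Ccl2* overlaps *Gm17268* and *Ccl6* overlaps *E230016K23Rik*, each on the other strand, and as the sources do not give the strand setting of the counting, reads of the overlaps cannot be told apart.

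Genes with the nearest pattern were sought among 10101 other protein-coding genes averaging 100 normalized counts or more over the libraries, by the root mean square difference of their 5 group means on the log2 scale, each gene centred on its own mean. For *Ccl3* it was *Cav1* (0.15), then *Ccl4* at 0.186, and for *Ccl4* it was *Ccl3*, so this pair were near neighbours of each other. The nearest gene was *Gm13889* (0.357) for *Ccl2*, *Tarm1* (0.348) for *Ccl5*, *Slc7a2* (0.348) for *Ccl7* and *Tnfsf4* (0.453) for *Ccl22*. For *Ccl12* it was *Ifnb1* (0.354), the gene of interferon beta, followed by *Steap4* (0.377) and *Oasl1* (0.378). *Ccl9* was nearest to *Mmp14* (0.101) and *Ccl6* to *Capn7* (0.0323). *Ccl17* had no close match, with *Rasgrp1* (1.43) first. By Pearson r over the 5 means instead, the nearest 3 shared 1 gene with these for *Ccl6* and for *Ccl9* and 0 for the other genes, so most of these names depend on the measure.

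Genes of CC chemokine receptors were looked at in the same cells, among them several that do not bind these ligands. Of 11 listed, 8 were tested. Over PBS, edgeR's quasi-likelihood test called 3 of them higher with dsHMGB1 (23.3% of all genes) and 2 lower (24.2%). With LPS it called 6 higher (26.7% of all genes) and 1 lower (36.2%), and with LPS/IFNγ 7 higher (29.0%) and 0 lower (31.2%), the latter with 1 lower at an unadjusted p under 0.05 and 1 by DESeq2. In frHMGB1 edgeR's quasi-likelihood test called 0 higher and 0 lower, with 0 and 0 at an unadjusted p under 0.05 and by DESeq2, and without PBS replicate 3 *Ccr1* was called lower there (-0.38 by edgeR). *Ccr7*, read in 2 counts in PBS, passed the filter through other groups, and without it the higher counts were 5 of 7 with LPS and 6 of 7 with LPS/IFNγ. The lower counts move with *Ccr10*, which had 43 counts in PBS and 8 in dsHMGB1, and these 2 genes are named after their values were seen. Its lower call in dsHMGB1 was lost without PBS replicate 1 (-2.38) or 2 (-2.35) or dsHMGB1 replicate 1 (-2.18), 2 (-2.31) or 3 (-2.41). It was called lower in LPS without LPS replicate 3 (-2.93) and in LPS/IFNγ without LPS/IFNγ replicate 1 (-3.36). *Ccr2*, the receptor of *Ccl2*, *Ccl7* and *Ccl12*, had log2 fold changes of -1.60 with dsHMGB1, -3.30 with LPS and 1.80 with LPS/IFNγ, all called, so it was lower than PBS with dsHMGB1 and LPS and higher with LPS/IFNγ. *Ccr1*, bound by *Ccl3*, *Ccl5*, *Ccl6* and *Ccl9*, was called higher in LPS (1.40) and LPS/IFNγ (3.53). It was not called in dsHMGB1, and was called there with PBS replicate 2 left out (0.44 by edgeR). *Ccr4*, the receptor of *Ccl17* and *Ccl22*, had 14 counts over all 15 libraries and was not tested.

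Markers of neutrophils, lymphocytes, mast cells, basophils and erythroid cells were scarce, while those of fibroblasts were more abundant. Of 10 neutrophil markers 10 were found and 2 tested, at a sum of 2.01 to 5.65 CPM per library, with *S100a8* the most abundant and *S100a9*, *Ly6g*, *Mpo* and *Retnlg* at 0 counts. In normalized counts the neutrophil sum was 91.4 to 301 in PBS, 96.2 to 115 in frHMGB1, 133 to 269 with dsHMGB1, 313 to 344 with LPS and 146 to 195 with LPS/IFNγ, so the 3 LPS libraries lay above the others on this scale. The part of neutrophils in the chemokine levels was not tested. Of 8 lymphocyte markers 8 were found and 1 tested, at 0.0395 to 0.491 CPM, with *Klrb1c* on top and *Cd3e*, *Cd3d*, *Cd8a* and *Ncr1* at 0. Of 5 mast cell and basophil markers 5 were found and 1 tested, at 0 to 0.281 CPM, with *Cpa3* on top and *Ms4a2*, *Fcer1a* and *Mcpt4* at 0. Of 5 erythroid markers 5 were found and 0 passed the filter, at 0 to 0.0891 CPM, with *Alas2* on top and *Hbb-bs* and *Hba-a1* among those at 0. Of 6 fibroblast markers 6 were found and 5 tested, at 118.1 to 282.2 CPM, with *Col1a1* on top. Its PBS mean was 4655 normalized counts, against 5029 for the macrophage marker *Fcgr1* and 851976 for *Lyz2*. In normalized counts the fibroblast sum was 6297 to 11951 in PBS, 10727 to 10994 in frHMGB1, 11097 to 13910 with dsHMGB1, 15216 to 16227 with LPS and 16163 to 16285 with LPS/IFNγ, so on this scale the LPS and LPS/IFNγ libraries lay above PBS, which they did not in CPM. The part of fibroblasts in the chemokine levels was not tested.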

How the data were processed

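The deposited table holds raw counts per gene and library, which the authors made from stranded, paired-end mRNA reads (CASAVA) placed on GRCm38 by STAR. Which tool, annotation and strand setting did the counting is not stated in the labels or the study's methods. Of 51763 genes, 22712 had no counts, and GENCODE M21, which held 51661 of them, gave names, positions and exon lengths. Totals per library were 40934540 to 80925478 counts.

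The 15 libraries were fitted together with edgeR 4.0.16 (R 4.3.3, limma 3.58.1): genes kept by filterByExpr (minimum count 10, minimum total 15), TMM scaling, the quasi-likelihood F test for 8 comparisons of 2 conditions, and Benjamini-Hochberg adjustment over 16919 genes. Normalized counts, log2 fold changes and SEs came from DESeq2 1.42.0. Calls were also run on simulated data, whose outcome is not given here and on which no result rests.

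The 10 genes and the lists of markers (macrophage, dendritic cell, neutrophil, lymphocyte, mast cell and basophil, fibroblast, erythroid), receptors, proteases and other CC chemokines were chosen with earlier results of these data known. The genes named as nearest in pattern were the 3 with the smallest distance for each. Promoters came from RefSeq (GRCm38.p6). A shorter NF-κB form and forms of the C/EBP, SP1, PU.1 and IRF motifs were also searched for and are not reported.

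Alternatives tried were DESeq2's test, RLE, upper-quartile and total-count scaling, no filter and a filter of 1 CPM in 3 libraries, a 2-fold threshold (glmTreat), protein-coding genes alone, a replicate block, each pair of groups fitted alone, and leaving out each library. Leaving PBS replicate 3 out of comparisons without PBS was chosen after seeing the data.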

Additional observations from a re-analysis of the deposited data

How the results depend on the processing

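Over the alternatives other than leaving out a library, 762 of the log2 fold changes stayed on their side of the threshold, 13 of them uncalled values that changed sign, 10 crossed it to be called, 24 crossed it to be no longer called, and 1 called value reversed, *Ccl6* in dsHMGB1 against PBS (-0.036 when only total counts were scaled). With 1 library left out 483 stayed on their side, 9 of them uncalled with a change of sign, 11 crossed it to be called and 26 to be no longer called. Among these changes, glmTreat asks for a larger fold by its construction, and for the others the cause was not tested.

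Of the 10 genes, those called higher in dsHMGB1 than in PBS numbered 9 under total counts, upper-quartile scaling, the filter of 1 CPM in 3 libraries, glmTreat and only the 2 groups compared, and 9 to 10 with 1 library left out. Those called higher in frHMGB1 than in PBS numbered 1 under DESeq2 and 1 under total counts, and 0 to 5 with 1 library left out. Those called lower in LPS than in PBS numbered 1 under total counts and 1 under upper-quartile scaling. Those called lower in LPS/IFNγ than in PBS numbered 0 under DESeq2, RLE factors, no filter, glmTreat, protein-coding genes alone and only the 2 groups compared, and 0 to 1 with 1 library left out. Under glmTreat, which asks for a change over 2-fold, counts were 0 higher and 5 lower in dsHMGB1 against LPS, 2 higher and 2 lower in dsHMGB1 against LPS/IFNγ, and 0 higher in LPS/IFNγ against LPS. Of the 16919 genes tested, glmTreat called 689 higher and 242 lower in dsHMGB1 against LPS. It called 419 higher and 723 lower in dsHMGB1 against LPS/IFNγ, and 917 higher in LPS/IFNγ against LPS. With 1 library left out, 0 to 1 were higher in dsHMGB1 against LPS and 0 to 1 higher in LPS/IFNγ against LPS. For *Ccl5*, *Ccl12* and *Ccl22* in these comparisons the lost calls came with log2 values near those of all libraries. With only the 2 groups fitted, *Ccl5* was called lower in LPS/IFNγ than in LPS (-0.50) and in dsHMGB1 than in LPS/IFNγ (-0.89).

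The main fit assumed no pairing of the groups by library number. Over 30 pairs of libraries with the same number, correlations after removing group means ran from -0.34 to 0.336. Pairs with different numbers ran from -0.398 to 0.416. These ranges cannot settle whether the numbers pair the groups. Under the replicate block the count lower in LPS/IFNγ against PBS was 0, and the other member counts were those without the block.

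The shares of all genes called also move. Without PBS replicate 3, frHMGB1 against PBS had 1459 genes higher and 1576 lower, against 222 and 963 with all libraries, and with protein-coding genes alone 41 and 29. Under total counts, dsHMGB1 against PBS had 2615 higher and 6689 lower (3936 and 4092 under TMM), LPS against PBS 2653 and 9458 (4515 and 6121), and LPS/IFNγ against PBS 2976 and 8782 (4914 and 5284). Comparisons between stimulated groups moved too without PBS replicate 3, an alternative chosen after seeing the data. LPS/IFNγ against LPS then had 4353 higher and 4213 lower (2765 and 1583 with all libraries). For dsHMGB1 the counts were 4433 and 4032 against LPS (2670 and 1791), and 4840 and 4398 against LPS/IFNγ (2797 and 2824).

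Limits: all libraries come from pooled marrow, so spread between mice is not in any test. Each comparison has 3 libraries a group at 1 time point, 24 h. *Ccl17* in PBS, frHMGB1 and LPS/IFNγ and *Ccl12* in PBS and frHMGB1 are read in 12 counts or fewer. Their folds are known at best to the counting intervals given, which leave out the spread between libraries. RNA levels say nothing of secreted protein.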

Other observations

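Of 11 other CC chemokine genes listed, 6 were tested. Over PBS, edgeR's quasi-likelihood test called 3 higher in each of dsHMGB1, LPS and LPS/IFNγ, *Ccl8*, *Ccl20* and *Ccl24*, and 2, 1 and 2 lower. Of all genes 23.3%, 26.7% and 29.0% were called higher in these comparisons and 24.2%, 36.2% and 31.2% lower. *Ccl20* and *Ccl24*, read in 0 and 5 counts in PBS, passed the filter through other groups and could hardly be called lower, and of the other 4 genes 1 was called higher in each of these 3 comparisons. The lower calls were of *Ccl28*, and of *Ccl27a* with dsHMGB1 and LPS/IFNγ. In dsHMGB1 *Ccl27a* lost its call without PBS replicate 3 (-0.86 by edgeR), dsHMGB1 replicate 1 (-1.56) or 3 (-1.63), and *Ccl28* without dsHMGB1 replicate 1 (-1.65). In LPS *Ccl28* lost it without LPS replicate 1 (-1.57), and *Ccl27a* was called lower without PBS replicate 2 (-1.54). In frHMGB1 edgeR's quasi-likelihood test called 0 higher and 0 lower, with 1 higher and 0 lower at an unadjusted p under 0.05, and 0 and 0 by DESeq2. Without PBS replicate 2, which holds all 5 PBS counts of *Ccl24*, that gene was called higher there (5.27 by edgeR, against 1.80), a fitted value that depends on the prior count. The genes of these lists are named after their values were seen. *Ccl8*, a ligand of CCR8 in the mouse, lies between *Ccl12* and *Ccl5* on chromosome 11, with mean normalized counts of 17.9 in PBS, 16.4 in frHMGB1, 183 with dsHMGB1, 397 with LPS and 919 with LPS/IFNγ. Its log2 fold changes over PBS were 5.77 with LPS/IFNγ, 4.56 with LPS and 3.44 with dsHMGB1. PBS libraries held 12.9, 3.15 and 37.5 normalized counts, and without PBS replicate 3 edgeR's values went from 5.82, 4.58 and 3.51 to 6.75, 5.56 and 4.45. *Ccl20*, the CCR6 ligand, had 0 counts in PBS and frHMGB1 and means of 95.5 with dsHMGB1, 186 with LPS and 34.1 with LPS/IFNγ. Its lower call in dsHMGB1 than in LPS (-0.91 by edgeR) was lost without LPS replicate 1 (-0.89), 2 (-0.92) or 3 (-0.9998) or dsHMGB1 replicate 2 or 3 (-0.77 in each). It was called lower in LPS/IFNγ than in LPS (-2.45 on the log2 scale) and higher in dsHMGB1 than in LPS/IFNγ (1.48). *Ccl24*, a CCR3 ligand, had means of 1.05, 4.55, 13.3, 102 and 636 from PBS to LPS/IFNγ, and was called higher in LPS/IFNγ than in LPS (2.63).

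Of 4 atypical chemokine receptor genes, which take up chemokines without signalling for migration, 1 was tested, *Ackr3*. It was read in 2 counts in PBS, both in replicate 1, passed the filter through other groups and could hardly be called lower. It was called higher than PBS in LPS and LPS/IFNγ, at log2 values by edgeR that went from 3.89 to 6.22 and from 5.09 to 7.42 without PBS replicate 1, fitted values that depend on the prior count. It was called higher in dsHMGB1 too (3.13, and 5.46 without PBS replicate 1), a call lost without PBS replicate 2 (2.56 on edgeR's log2 scale) or dsHMGB1 replicate 2 or 3 (2.82 in each). Of 8 listed proteases known to trim chemokines, 7 were tested, of which 5 were called higher than PBS with dsHMGB1, 6 with LPS and 6 with LPS/IFNγ, and 1, *Mmp8*, lower in LPS, a call lost without LPS replicate 2 (-0.43 by edgeR). Without PBS replicate 3 *Mmp8* was called lower in dsHMGB1 (-0.49) and LPS/IFNγ (-0.35) too. The higher call of *Mmp2* was lost in dsHMGB1 without dsHMGB1 replicate 3 (0.34), and in LPS/IFNγ without PBS replicate 3 (0.25) or LPS/IFNγ replicate 1 (0.41), 2 (0.41) or 3 (0.39). The shares of all genes are those given for the other CC chemokines. *Ccrl2*, which binds the chemoattractant chemerin and is listed with the receptors, was called higher by 4.86 with dsHMGB1, 5.67 with LPS and 4.72 with LPS/IFNγ on the log2 scale.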
